A study of Homo sapiens with 6 samples.

Results

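The 10 genes described here encode the cytosolic chaperone HSP90, in its inducible form HSP90AA1 and its constitutive form HSP90AB1, and 8 of its cochaperones, AHSA1, STIP1, CHORDC1, FKBP4, CDC37, PTGES3, CACYBP and ST13. They were taken by symbol from the 27451 gene rows of a TPM table (a gene's share of its library after division by transcript length, scaled to a total of 1000000), and all 10 symbols had a single row. The table came from poly-A RNA sequencing of the line MDA-MB-231, an established line from a human breast cancer without estrogen or progesterone receptors. Cells received 2 µM of H182, a compound of a series on inhibitors of the transcription factor STAT3, for 2 h (3 libraries), or the vehicle DMSO (3 libraries).

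HSP90 is an ATP-driven dimer that helps kinases, steroid receptors and other client proteins reach or keep an active fold. Clients arrive from HSP70, the cochaperones STIP1 and ST13 serve that handover, CDC37 brings in kinases, AHSA1 speeds up ATP hydrolysis, and PTGES3 (p23) holds the closed, ATP-bound form. In human cells, heat and unfolded protein activate the transcription factor HSF1, which binds heat shock elements, arrays of inverted GAA units, in the promoters of chaperone genes.

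Promoter sequences are shown first because some of the members hold a heat shock element near a transcript start and others do not. RefSeq promoters (build GRCh38.p14, 250 bases before to 50 bases after a transcript start) were matched by symbol for 8 of the 10 genes, with 14 starts in all. FKBP4 and ST13 were not matched. The heat shock element was searched as the 3-unit motif GAANNTTCNNGAA on both strands, which includes its reverse complement TTCNNGAANNTTC. Of all 35116 promoters of this length, 172 held it, 0.490%. Of the 14 promoters of the members, 3 held it, 1 each of HSP90AA1, HSP90AB1 and CHORDC1. These 3 promoters are printed with every base of a 3-unit match in capitals, followed for comparison by that of CDC37, which held no match. CDC37 is 1 of 5 members with promoters but no match, and 3 of those 5 rose in H182. All printed sequences are read 5′ to 3′ along the gene's strand. The positions are chr14:102086995-102087294 (minus strand) for HSP90AA1, chr6:44247693-44247992 (plus strand) for HSP90AB1, chr11:90223000-90223299 (minus strand) for CHORDC1 and chr19:10403493-10403792 (minus strand) for CDC37.
HSP90AA1: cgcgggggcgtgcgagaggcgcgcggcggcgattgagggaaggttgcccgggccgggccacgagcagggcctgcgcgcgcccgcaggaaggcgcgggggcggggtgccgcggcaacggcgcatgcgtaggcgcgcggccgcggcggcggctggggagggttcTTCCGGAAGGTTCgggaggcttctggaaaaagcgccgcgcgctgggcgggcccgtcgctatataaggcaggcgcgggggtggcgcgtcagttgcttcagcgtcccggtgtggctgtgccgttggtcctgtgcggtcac
HSP90AB1: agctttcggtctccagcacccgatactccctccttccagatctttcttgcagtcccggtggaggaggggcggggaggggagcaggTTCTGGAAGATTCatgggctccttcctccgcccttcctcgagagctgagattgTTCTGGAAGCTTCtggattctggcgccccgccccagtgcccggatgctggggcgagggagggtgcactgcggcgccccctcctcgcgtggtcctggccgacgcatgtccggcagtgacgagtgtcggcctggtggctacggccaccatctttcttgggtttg
CHORDC1: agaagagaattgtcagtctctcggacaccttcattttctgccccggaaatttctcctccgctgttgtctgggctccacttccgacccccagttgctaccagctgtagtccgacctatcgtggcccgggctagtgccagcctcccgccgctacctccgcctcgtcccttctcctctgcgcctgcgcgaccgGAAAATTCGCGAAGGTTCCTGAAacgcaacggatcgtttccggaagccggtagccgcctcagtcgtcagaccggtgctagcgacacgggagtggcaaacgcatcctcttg
CDC37: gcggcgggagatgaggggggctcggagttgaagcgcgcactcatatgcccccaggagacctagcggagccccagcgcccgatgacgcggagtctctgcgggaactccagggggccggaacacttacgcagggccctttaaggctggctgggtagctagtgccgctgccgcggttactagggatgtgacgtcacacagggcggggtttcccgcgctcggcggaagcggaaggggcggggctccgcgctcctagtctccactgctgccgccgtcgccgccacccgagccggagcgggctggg

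The element of HSP90AA1, TTCCGGAAGGTTC, lay from 88 to 76 bases before the transcript start. It belongs to the downstream of 2 RefSeq starts of that gene. Gene-level TPM does not tell which start was used, here or at HSP90AB1, where only 1 of 3 starts held a 3-unit match. HSP90AB1 held 2 elements, TTCTGGAAGATTC from 165 to 153 and TTCTGGAAGCTTC from 112 to 100 bases before the third of its 3 starts. In CHORDC1, 3 overlapping matches made up 1 run of 23 bases, GAAAATTCGCGAAGGTTCCTGAA, from 60 to 38 bases before the start. The 2-unit pairs that make up this element are common, GAANNTTC in 6.77% and TTCNNGAA in 7.74% of all promoters, and each 3-unit match contains both. Outside the 3-unit matches, HSP90AA1, CHORDC1 and STIP1 held such pairs, the pair of STIP1 from 14 to 21 bases after its second start. STIP1 also held 4 copies of the CCAAT box (CCAAT, in 34.6% of all promoters) and 1 TATA box on the opposite strand (TATAAA, in 11.5%). The upstream start of HSP90AA1 held 1 CCAAT box, on the opposite strand. Only the exact letters TATAAA were searched for the TATA box. The similar run TATATAAG in the printed HSP90AA1 promoter was therefore not counted. AHSA1, CDC37, PTGES3 and CACYBP held none of these motifs in these windows. These matches are letters only, and binding was not measured.

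**Figure D1:**
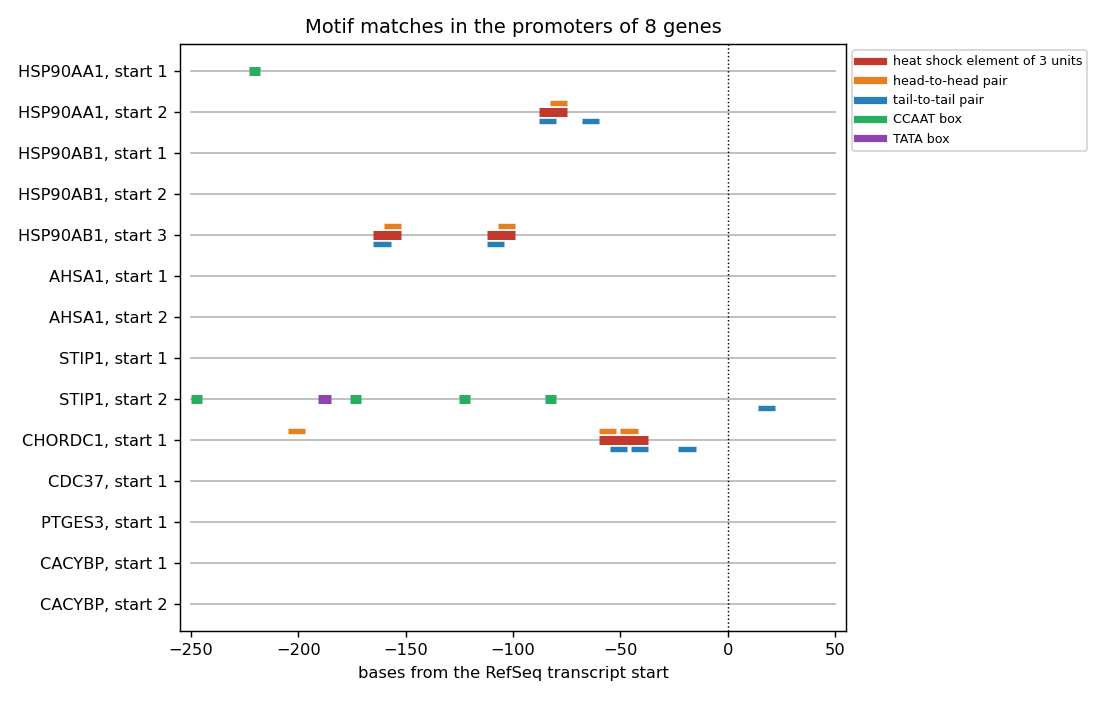
Each line is a RefSeq promoter of 8 of the genes, drawn by distance in bases from the transcript start (dotted), with matches of 5 motifs as coloured bars on either strand. The 3-unit heat shock element (red) appears at 1 start each of HSP90AA1, HSP90AB1 and CHORDC1, and the pairs drawn above and below it overlap it.

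The deposited TPM are shares of a library, so the number of reads is unknown and no counting error can be given. Over log2(TPM + 1) of the tested genes, Pearson's r was 0.9928 to 0.9942 between libraries of 1 group and 0.9787 to 0.9806 between groups, across genes, which are not independent replicates. The labelled line was checked by its markers: VIM was at 3430 to 3701 TPM in H182 and 4002 to 4051 TPM in DMSO, the hormone receptor genes ESR1 and PGR did not exceed 0.06 TPM in any library, and CDH1 did not exceed 0.28. Of the genes listed as low in this line GATA3 was not, at 6.47 to 7.27 TPM in H182 and 9.61 to 11.3 TPM in DMSO. Among 6 markers of other cell types, GFAP was at 3.88 to 5.23 TPM in H182 and 4.02 to 5.80 TPM in DMSO, and the others did not exceed 1.07 TPM. The part of GATA3 or GFAP RNA in any result was not tested.

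The comparison of H182 with DMSO asked how the HSP90 system's transcripts stood 2 h after the compound was added. Both HSP90 genes rose, HSP90AA1 2.67-fold and HSP90AB1 1.44-fold, and so did the cochaperone genes CHORDC1 (2.11-fold), AHSA1 (1.58-fold), FKBP4 (1.50-fold), STIP1 (1.32-fold) and CACYBP (1.27-fold), each as a ratio of mean TPM. CDC37, PTGES3 and ST13 did not pass the test, at ratios of 0.998, 0.996 and 1.06. In total 7 of 10 members rose and none fell, where limma called 5.30% of all 12294 tested genes higher and 18.7% lower (adjusted p under 0.05, mean TPM of 1 or more). All 10 members passed that filter. In TPM, 8 of 10 members lay higher in every H182 library than in any DMSO library, against 8.67% of tested genes. The median log2 change was 0.46 over the members and -0.09 over all tested genes. In bulk RNA, more RNA per cell and more cells that respond cannot be told apart.

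**Figure D2:**
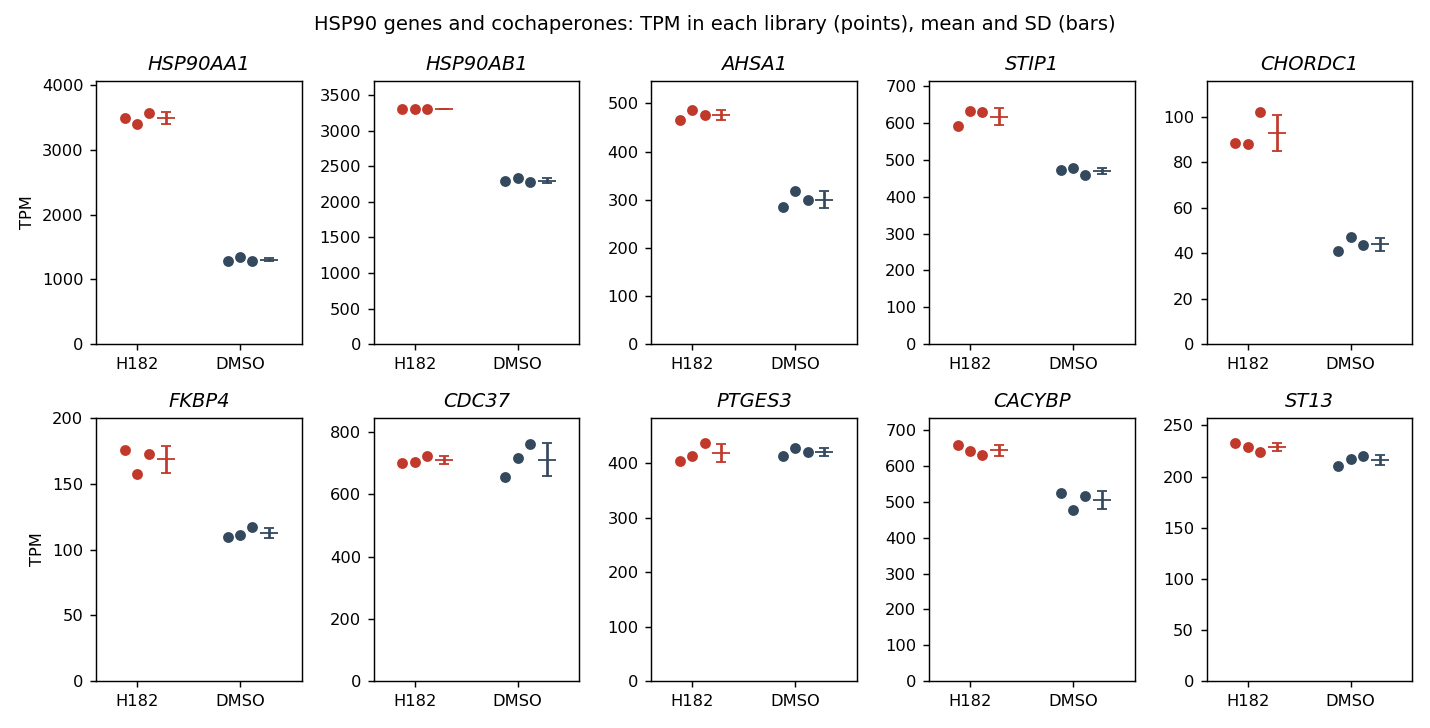
TPM of the 10 genes in each of 3 H182 libraries (red, left) and 3 DMSO libraries (dark, right), with the mean and SD beside the points, on linear axes from 0. HSP90AA1 sits between 3394 and 3574 TPM in H182, above its DMSO values of 1290 to 1343 TPM, while the groups overlap for CDC37 and PTGES3.

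HSP90AA1 (ENSG00000080824.18, chromosome 14, 102080738 to 102139699, GRCh38, minus strand, 11 exons in its principal transcript) was at 3500, 3394 and 3574 TPM in the H182 libraries, against 1292, 1343 and 1290 TPM in the DMSO libraries. The groups lay far apart, and the 3 libraries of each stayed close together. It changed by 1.41 on the log2(TPM + 1) scale (SE 0.033, limma adjusted p = 1.72e-09), the 99th largest rise of 12294 tested genes. By mean level it ranked 23rd of all genes in H182 and 113th in DMSO. Of the 10 members it had the largest change, and its 95% interval (1.34 to 1.49) did not overlap that of the next, CHORDC1.

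HSP90AB1 (ENSG00000096384.19, chromosome 6, 44246166 to 44253888, plus strand, 12 exons) was at 3307, 3297 and 3301 TPM in the H182 libraries, against 2289, 2332 and 2273 TPM in the DMSO libraries. The lowest H182 library was well above the highest DMSO library. Its change was 0.52 on the log2 scale (SE 0.028, limma adjusted p = 1.04e-06), which took it to rank 27 by level in H182, against rank 44 in DMSO. This gene was the more abundant of the pair in every DMSO library. In H182 libraries HSP90AA1 was the slightly higher of the 2.

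The ratio of HSP90AA1 to HSP90AB1 within a library is unaffected by any scaling that divides the library by a single factor, which quantile normalization does not do. It was 1.06, 1.03 and 1.08 in H182 libraries, against 0.564, 0.576 and 0.567 in DMSO libraries. The groups did not overlap, and the ratio was 1.86-fold higher in H182 (log2 difference 0.89, two-sided exact permutation p = 0.1, the smallest that 3 against 3 libraries allow). HSP90AA1 thus made up 51.4 ± 0.631% of the transcripts of the pair in H182 and 36.3 ± 0.240% in DMSO (SD, n = 3 each). Together both genes held 0.679 ± 0.00933% of all TPM in H182 and 0.361 ± 0.00600% in DMSO, a gain of 3185 TPM, of which HSP90AA1 gave 2181 and HSP90AB1 1003.

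AHSA1 (ENSG00000100591.7, chromosome 14, 77457870 to 77469474, plus strand, 9 exons) encodes the main activator of the HSP90 ATPase. It was at 465, 487 and 476 TPM in the H182 libraries, against 285, 318 and 298 TPM in the DMSO libraries. The groups were separate, and the change was 0.66 on the log2 scale (SE 0.045, limma adjusted p = 6.76e-06). PTGES3 (ENSG00000110958.15, chromosome 12, 56663341 to 56688408, minus strand, 8 exons), whose product p23 acts late in the cycle and slows ATP hydrolysis, was at 405, 414 and 438 TPM in the H182 libraries, against 413, 428 and 421 TPM in the DMSO libraries. The groups overlapped, and the change of -0.01 on the log2 scale (95% interval -0.09 to 0.08, limma adjusted p = 0.913) did not pass.

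The handover from HSP70 is served by STIP1, also called HOP, which binds both chaperones through its TPR domains, and by ST13, also called HIP, which binds HSP70. STIP1 (ENSG00000168439.16, chromosome 11, 64185272 to 64204543, plus strand, 14 exons) was at 591, 632 and 628 TPM in the H182 libraries, against 472, 476 and 459 TPM in the DMSO libraries. All H182 values were the higher ones, and the change was 0.39 on the log2 scale (SE 0.037, limma adjusted p = 7.93e-05). ST13 (ENSG00000100380.12, chromosome 22, 40824535 to 40857022, minus strand, 12 exons) was at 233, 229 and 224 TPM in the H182 libraries, against 211, 217 and 220 TPM in the DMSO libraries. The groups did not overlap, but by little, and the change of 0.08 on the log2 scale (95% interval 0.00 to 0.17) did not pass (limma adjusted p = 0.132). ST13 did pass with median-of-ratios scaling of the TPM (log2 change 0.19, adjusted p = 0.0144) and with quantile normalization (0.16, adjusted p = 0.0151), where 7.88% and 6.78% of tested genes were called higher.

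Among cochaperones that serve particular clients, FKBP4 encodes FKBP52, a TPR immunophilin of steroid receptor complexes, and CDC37 encodes the adaptor for kinases. FKBP4 (ENSG00000004478.7, chromosome 12, 2794953 to 2805423, plus strand, 10 exons) was at 176, 157 and 173 TPM in the H182 libraries, against 110, 111 and 117 TPM in the DMSO libraries. The lowest H182 library exceeded every DMSO library, and the change was 0.58 on the log2 scale (SE 0.053, limma adjusted p = 5.93e-05). CDC37 (ENSG00000105401.6, chromosome 19, 10391134 to 10420121, minus strand, 8 exons) was at 700.0, 705 and 724 TPM in the H182 libraries, against 656.5, 716 and 761 TPM in the DMSO libraries. The H182 values lay inside the DMSO range, and the change was 0.00 on the log2 scale (95% interval -0.11 to 0.11, limma adjusted p = 0.991). Its sign turned with median-of-ratios scaling, to 0.10, as did that of PTGES3, also to 0.10, and neither passed.

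CHORDC1 and CACYBP encode proteins with a CS domain. CHORDC1 (ENSG00000110172.11, chromosome 11, 90201160 to 90223364, minus strand, 11 exons), whose product binds the nucleotide-binding domain of HSP90, was the least abundant member, at 88.4, 88.0 and 102 TPM in the H182 libraries, against 41.1, 47.0 and 43.7 TPM in the DMSO libraries. The groups did not overlap, with a change of 1.06 on the log2 scale (SE 0.072, limma adjusted p = 7.01e-06). HSP90AA1 and CHORDC1 were the 2 of 10 members called with a log2 change of at least 1, where 1.30% of tested genes were called so. CACYBP (ENSG00000116161.17, chromosome 1, 174999163 to 175011715, plus strand, 6 exons), whose product binds the calcium-binding protein S100A6 and the ubiquitin ligase SIAH1, was at 660, 643 and 630 TPM in the H182 libraries, against 524, 477 and 517 TPM in the DMSO libraries. The groups were separate, and the change of 0.35 on the log2 scale (SE 0.042, limma adjusted p = 0.000411) was the smallest that passed among the members.

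In order of change, HSP90AA1 was followed by CHORDC1, AHSA1, FKBP4, HSP90AB1, STIP1, CACYBP, ST13, CDC37 and PTGES3. The 95% intervals of neighbours did not overlap between HSP90AA1 and CHORDC1, between CHORDC1 and AHSA1, and between CACYBP and ST13. From AHSA1 to CACYBP, and from ST13 to PTGES3, the intervals of neighbours overlapped. Overlap of intervals is not a test of a difference between genes, and no such test was run. Of the 3 genes with a 3-unit heat shock element, HSP90AA1 and CHORDC1 led this order, and HSP90AB1 came after AHSA1, which held no match. Of the 46 tested genes with such an element in a RefSeq promoter, 9 were called higher (19.6%) and 7 lower, with a median log2 change of -0.02. The 3 members with the element are among both the 46 and the 9. They were chosen with earlier results of these data known, so this share is not independent of that choice. Of the 9142 tested genes with promoters that hold none, 478 were called higher (5.23%) and 1796 lower, with a median of -0.10. AHSA1, STIP1 and CACYBP rose without a match in these windows. Whether the element had a part in any change was not tested.

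**Figure D3:**
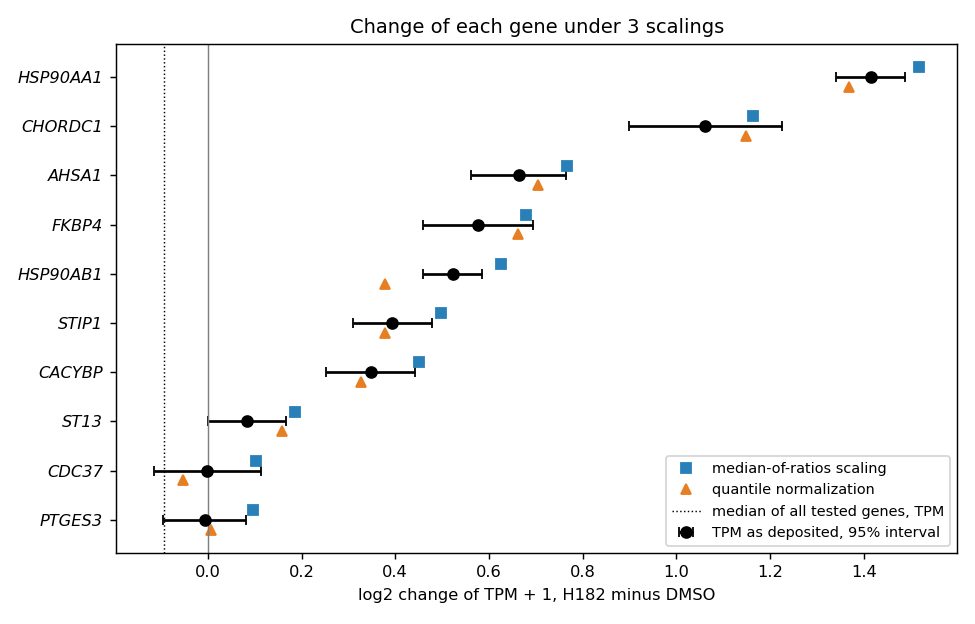
The log2 change of each gene, H182 minus DMSO, with its 95% interval in TPM as deposited (black), and with median-of-ratios scaling (squares) and quantile normalization (triangles), with the median of all tested genes as a dotted line. HSP90AA1 and CHORDC1 stand to the right under all 3 scalings, and CDC37 and PTGES3 lie about 0, with a sign that depends on the scaling.

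Each cochaperone was also set against the sum of both HSP90 genes within a library, a measure chosen after their rise was seen. The sum was 1.88-fold higher in H182, so any cochaperone that rose less stands lower by construction, and the values describe proportions only. CDC37 stood at 105 ± 1.46 TPM per 1000 TPM of HSP90AA1 plus HSP90AB1 in H182 and at 197 ± 15.3 in DMSO (SD, n = 3 each). PTGES3 stood at 61.7 ± 2.11 in H182 and 117 ± 1.54 in DMSO, and ST13 at 33.7 ± 0.924 in H182 and 59.9 ± 1.67 in DMSO, on the same scale. These 3 had not passed the test in TPM. Cochaperones that rose less than the sum were likewise lower by this measure, with STIP1 at 90.9 ± 3.83 in H182 and 130 ± 1.45 in DMSO, CACYBP at 94.9 ± 2.82 in H182 and 141 ± 9.19 in DMSO, FKBP4 at 24.8 ± 1.2 in H182 and 31.3 ± 1.43 in DMSO, and AHSA1 at 70.1 ± 2.32 in H182 and 83.3 ± 3.56 in DMSO. CHORDC1 was the exception, at 13.7 ± 1.03 in H182 and 12.2 ± 0.656 in DMSO. No test is given for these 8 ratios. Summed, the 8 cochaperones held 3356 ± 39.0 TPM in H182 and 2780.5 ± 64.6 TPM in DMSO, a gain of 576 TPM, while the HSP90 pair gained 3185 TPM.

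**Figure D4:**
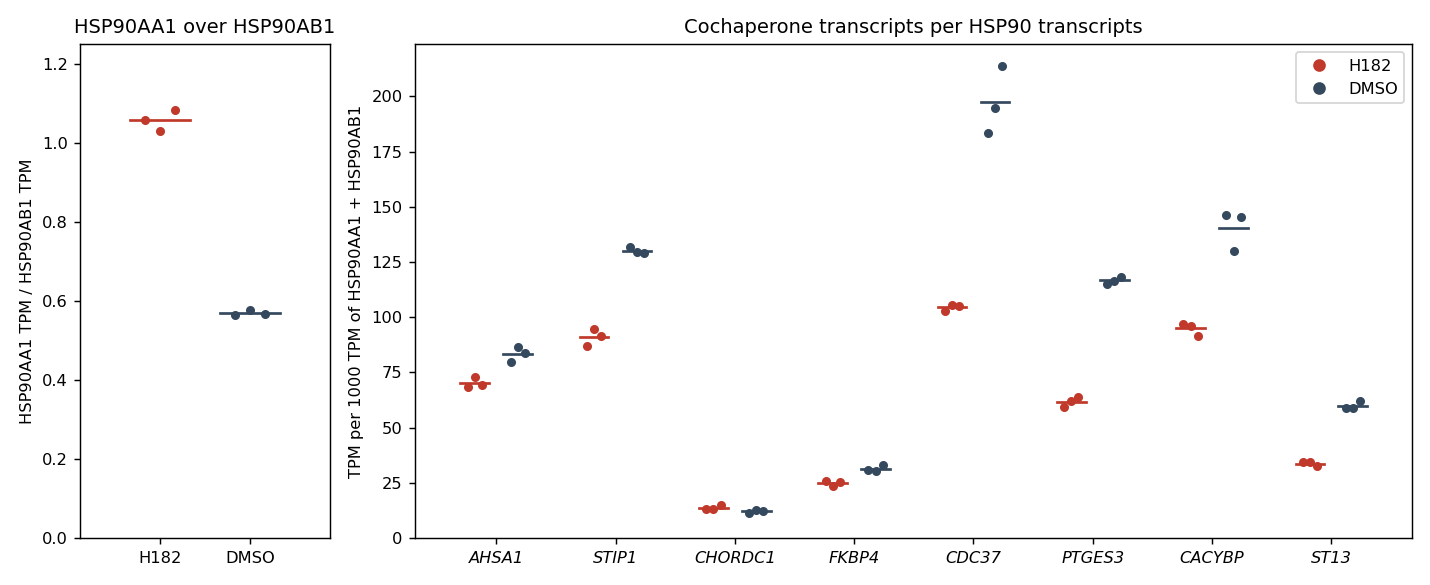
Left, the TPM of HSP90AA1 divided by that of HSP90AB1, and right, the TPM of each cochaperone per 1000 TPM of both HSP90 genes, in H182 (red) and DMSO libraries (dark), with lines at the means. The HSP90 ratio sits at 1.03 or above in all H182 libraries and at 0.576 or below in all DMSO libraries, and CHORDC1 is the cochaperone that is not lower in H182.

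The paralogs of other compartments moved less. HSP90B1, the GRP94 chaperone of the endoplasmic reticulum, was at 727, 736 and 744 TPM in the H182 libraries, against 645, 669 and 624 TPM in the DMSO libraries. It rose by 0.19 on the log2 scale (limma adjusted p = 0.00479). TRAP1, the mitochondrial paralog, was at 99.8, 98.1 and 94.1 TPM in the H182 libraries, against 107, 102 and 110.0 TPM in the DMSO libraries. These groups did not overlap, but the change of -0.13 on the log2 scale did not pass (limma adjusted p = 0.0749), and it was -0.03 with median-of-ratios scaling.

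A list of 32 other cytosolic cochaperones and partners of HSP90, with no members in it, did not move together. Of its 29 tested genes 3 rose (10.3%, against 5.30% of all tested genes), 8 fell (27.6%, against 18.7%) and 18 did not pass, with a median log2 change of -0.08, against -0.09 for all tested genes. With median-of-ratios scaling 6 were higher (20.7%) and 2 lower (6.90%), where 7.88% and 6.78% of tested genes were. Leaving out any single library left 3 to 5 falls. AHSA2, a relative of AHSA1 that GENCODE 29 lists as a transcribed unitary pseudogene, rose to 19.2 ± 0.145 TPM in H182, against 12.3 ± 1.50 TPM in DMSO. SUGT1, the partner of HSP90 in kinetochore assembly and innate immune receptor folding, rose to 69.6 ± 2.95 TPM in H182, against 52.4 ± 1.15 TPM in DMSO. FKBPL, an FKBP-like protein with TPR repeats, and NUDCD3, a cochaperone of the NudC family, fell, by 0.54 and 0.32 on the log2 scale, and also passed as lower with median-of-ratios scaling (limma adjusted p = 0.0173 and 0.0214).

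R2TP, with RUVBL1 and RUVBL2 at its core, works with HSP90 in building RNA polymerases, snoRNPs and PIKK complexes. Of 12 genes of R2TP, its prefoldin-like partners and the TTT complex, PDRG1 rose (log2 change 0.37) and URI1 fell (-0.33), both prefoldin-like subunits, and 10 did not pass. Each direction thus had 8.33% of the 12 genes, where 5.30% of all tested genes were called higher and 18.7% lower. Without H182 replicate 3, 2 genes of this list were lower. Among 48 genes of known HSP90 clients 43 were tested, of which 6 rose (13.95%, against 5.30% of all tested genes), 11 fell (25.6%, against 18.7%) and 26 did not pass, with a median log2 change of -0.06. With median-of-ratios scaling 7 were higher (16.3%, against 7.88%) and 3 lower (6.98%, against 6.78%), and leaving out a library gave 3 rises without H182 replicate 3 or DMSO replicate 3, and 5 to 7 falls without H182 replicate 1 or 2 or DMSO replicate 2 or 3. PIM1, a survival kinase whose gene is also a known STAT3 target, rose to 41.1 ± 1.13 TPM in H182, against 18.8 ± 0.876 TPM in DMSO. The cell cycle kinase genes WEE1, PLK1 and AURKB fell, to 33.1 ± 1.82, 140 ± 6.28 and 192 ± 4.40 TPM in H182, against 57.6 ± 6.74, 193 ± 10.1 and 249 ± 5.10 TPM in DMSO. HSF1 and STAT3, both clients, changed by -0.05 and -0.02 on the log2 scale and did not pass (limma adjusted p = 0.549 and 0.779). These values are of mRNA and do not show client protein or its folding.

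**Figure D5:**
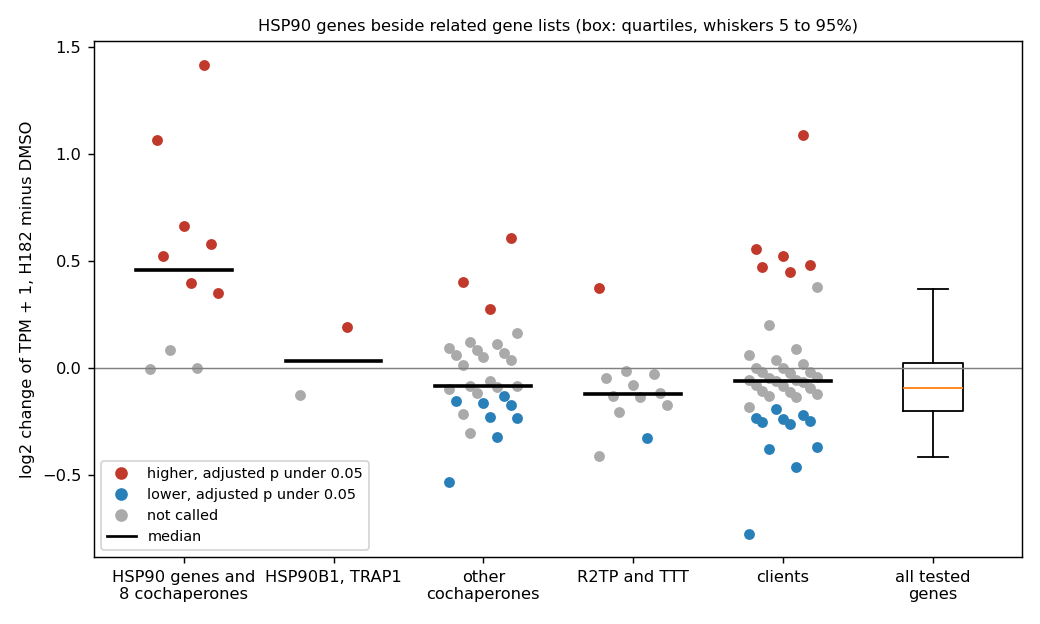
Log2 changes, H182 minus DMSO, of the tested genes of each list (points; red higher, blue lower, grey not called; line, median), beside a box of all tested genes (quartiles, whiskers from the 5th to the 95th percentile). The 10 HSP90 genes and cochaperones have a median of 0.46, while the medians of the other cochaperones, R2TP genes and clients are -0.08, -0.12 and -0.06.

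By the distance of its 6 library values, as log2(TPM + 1) minus the DMSO mean, the tested genes most like HSP90AA1 were HSD17B7, an enzyme of cholesterol synthesis (distance 0.132), MAFF, a small MAF transcription factor (0.137), and BHLHE40, a transcriptional repressor (0.141). HSD17B7 was at 26.8 ± 0.990 TPM in H182 and 9.96 ± 0.162 TPM in DMSO, MAFF at 87.3 ± 2.33 TPM in H182 and 32.2 ± 2.18 TPM in DMSO, and BHLHE40 at 31.0 ± 1.37 TPM in H182 and 11.1 ± 0.314 TPM in DMSO. The likeness is one of size and spread over 6 libraries in 2 groups.

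Reads could be shared between these genes and similar or overlapping ones, so reads of either could be counted for the other. GENCODE 29 names 16 pseudogenes of ST13, 5 each of HSP90AB1, FKBP4 and PTGES3, 4 of HSP90AA1, 3 of CACYBP, 2 of CDC37 and 1 of STIP1, and no row of these pseudogenes was among the 27451 used here. Genes on the opposite strand overlap several members, among them WDR20 at HSP90AA1 (30.2 to 37.6 TPM in H182, 30.6 to 36.0 TPM in DMSO) and VIPAS39 at AHSA1 (14.3 to 16.0 TPM in H182, 11.1 to 11.5 TPM in DMSO). The part of shared reads in the members' values was not tested.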

How the data were processed

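Per the labels' protocols, column-purified total RNA was poly-A selected and made into stranded Illumina libraries. STAR 2.5.0, RSEM 1.2.25 and GRCh38 are named in the submitters' processing notes. The sources used here do not give the annotation or the strand setting. TPM, as deposited, were scaled by the authors to 1000000 per library. Of 27567 rows, 92 spike-in rows, all listed at 0, and 24 duplicate rows of genes on X and Y were left out. TPM keeps no depth. Whether replicates were separate cultures is not in the labels, so a p-value reflects library spread, possibly technical.

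Values were tested as log2(TPM + 1), which understates changes of low genes, for 12294 genes whose mean TPM was 1 or more. The test was limma 3.58.1 (R 4.3.3; moderated, two-sided, variance trend over mean level), with p-values adjusted by Benjamini-Hochberg over every gene tested, at a threshold of 0.05. It was tested on simulated data first. There it called 15.4% of log2 changes of 0.25, 60.4% of those of 0.5 and 88.2% of those of 1. Of unchanged genes it called 0.0488%. Each size was given to 500 genes in all, over 10 simulations of 12294 genes each. With so few changed genes, against 2955 called in the data, the adjusted threshold was stricter there. These shares therefore do not carry over to the data. A gene that did not pass may still have changed by a small amount. The ratio of HSP90AA1 to HSP90AB1 was compared by exact permutation (SciPy 1.17.1). Errors are SDs unless called SE. Coordinates, exons and pseudogenes are from GENCODE 29, matched by gene identifier (CDC37, ST13 and AHSA2 in a later version than the table gives), and promoters from RefSeq on GRCh38.p14. Figures used matplotlib 3.10.9.

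Members and lists were chosen with earlier results of these data known. Named are all members, HSP90B1 and TRAP1, up to 4 called genes of lowest p per list, and the 3 genes nearest to HSP90AA1. HSF1, STAT3 and the overlapping genes were named after their values were seen. Alternatives changed the pseudocount, filter, scaling, variance model, library weights, replicate block, threshold and libraries used.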

Additional observations from a re-analysis of the deposited data

How the results depend on the processing

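Every alternative gave 7 members higher, except the 3 scalings below that added ST13, and none lower. Without single libraries the count was 7. The log2 change of HSP90AA1 ranged from 1.37 to 1.52 over 16 alternatives, that of HSP90AB1 from 0.38 to 0.63 and that of CHORDC1 from 0.99 to 1.16. ST13 passed at 0.19 with median-of-ratios scaling, 0.16 with quantile normalization and 0.12 with library totals taken without HSPA1A, HSPA1B and DNAJB1. The sign of CDC37 turned with median-of-ratios scaling (0.10), with those totals (0.0371), and without H182 replicate 1 or 2 or DMSO replicate 2 or 3, and ranged from -0.0575 to 0.0491 over libraries left out. That of PTGES3 turned with median-of-ratios scaling (0.10), quantile normalization (0.0061) and those totals (0.0310), and without H182 replicate 1 or 2 or DMSO replicate 2, with a range from -0.0395 to 0.0167. None of these values of CDC37 and PTGES3 passed.

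All called genes numbered 1802 with median-of-ratios scaling, 1436 at a threshold of 0.01 and 1963 to 2757 without single libraries, the fewest without DMSO replicate 2. Other cochaperones higher were 6 with median-of-ratios scaling and 5 with quantile normalization. They were 2 without a variance trend and at the threshold of 0.01, and 2 to 3 without single libraries. Those lower were 2 with either scaling and without a variance trend, 4 with the totals above, 3 at the threshold of 0.01, and 3 to 5 without single libraries. Of R2TP genes 2 were lower with a pseudocount of 5, with a mean TPM of 5 or more and with the replicate block, and 1 to 2 without single libraries. Clients higher were 3 at the threshold of 0.01 and 3 to 6 without single libraries. Those lower were 3 with median-of-ratios scaling, 6 with quantile normalization, 4 at 0.01, and 5 to 12 without single libraries. The causes were not tested beyond the smaller samples and stricter threshold themselves.

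Same-numbered libraries did not deviate together (r = -0.0130, 0.00245 and -0.0359), so the shared numbers were not taken as pairs. With the replicate block 7 members and 2684 genes in all were called, and the HSP90AA1 to HSP90AB1 ratio gave the same log2 difference of 0.89 (exact p = 0.25, the smallest that 3 pairs allow). That difference was 0.88 to 0.91 without single libraries. The planned addition of pseudogene values to HSP90AA1 and HSP90AB1 was not run, as no pseudogene rows were among those used. The read depth is unknown, so no limit set by depth can be given.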
